A study of Mus musculus with 4 samples.

Results

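The genes described here are 42 collagen and fibrillar matrix genes of the mouse, taken from a list by name that was drawn up with earlier results of these data known; the rule itself uses no measured value. All 42 were found in the gene table shared by the 4 libraries, which holds 50766 genes. The study sequenced single cells from mouse liver labelled as biliary epithelial cells (BECs, which line the bile ducts), from mice of the genotype Sox9EGFP in both groups. The controls were 2 mice sampled 7 days after sham surgery and the others were 2 mice sampled 7 days after bile duct ligation (BDL), in which the duct that drains the liver is tied off. Each mouse gave 1 library and is the replicate (n = 2 per group), and the labels give no age, sex, strain background, sorting gate or replicate number, so the replicate numbers used here only name libraries. The values are counts of unique molecular identifiers (UMIs), and levels are CPM, that is UMIs per 1000000 UMIs of the same cell class and library.

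Collagens are proteins of 3 chains wound around each other. The fibril-forming types I, III and V build the thick fibres of connective tissue, type IV builds the sheet-like basement membrane on which epithelium rests, and the small proteoglycans, fibulins, fibronectin and tenascin bind to these scaffolds or to cells. Before secretion the chains are modified by hydroxylases and folded with the help of a chaperone, and afterwards lysyl oxidases crosslink them. In the liver most fibrillar collagen is made by mesenchymal cells, namely the stellate cells that lie along the sinusoids and the fibroblasts around the portal tracts, and bile duct ligation is a standard model of the scarring that follows when bile cannot flow. The comparisons below ask which of these genes were found in the BECs and which in the mesenchymal cells caught with them, and how both differed 7 days after ligation.

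The promoters of the pair of members whose change differed most between the cell classes are printed first, both read from RefSeq promoters on GRCm38.p6, plus strand, because one gene (Nid1) was higher after ligation in the BECs and the other (Col15a1) in the mesenchymal cells. The windows lie upstream of the annotated start, in chr13:13437352-13437550 (199 bases) and chr4:47207762-47208011 (250 bases). Capitals mark each match to 1 of 6 short motifs searched on both strands: the GC box GGGCGG, the CAAT box CCAAT, the TATA box TATAAA, the TEAD motif GGAATG, the AP-1 motif TGACTCA and the E box CACGTG. None overlapped another here.
Nid1: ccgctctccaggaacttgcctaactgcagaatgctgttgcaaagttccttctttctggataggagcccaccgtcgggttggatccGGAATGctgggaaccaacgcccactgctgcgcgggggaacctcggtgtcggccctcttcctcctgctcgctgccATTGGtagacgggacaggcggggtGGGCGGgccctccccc
Col15a1: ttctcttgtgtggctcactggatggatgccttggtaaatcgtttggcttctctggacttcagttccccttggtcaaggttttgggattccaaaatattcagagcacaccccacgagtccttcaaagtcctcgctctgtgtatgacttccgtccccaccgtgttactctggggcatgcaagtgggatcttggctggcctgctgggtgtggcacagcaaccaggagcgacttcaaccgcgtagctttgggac
The Nid1 window holds GGAATG 165 bases, CCAAT (on the other strand, as ATTGG) 91 bases and GGGCGG 67 bases before the start, and the Col15a1 window holds none of the 6. Over all 32851 promoters of the table, 12.6% hold GGAATG, 33.8% CCAAT and 32.7% GGGCGG. These are letter matches only.

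Of 12211 cells in the files, 12180 were kept, and no barcode was shared between libraries. Library totals ran from 10024577 to 33809650 UMIs, and the median per cell was lower in sham (3260 and 2610 UMIs) than in BDL (7058 and 7793 UMIs). Doublet calling removed 14 cells. Clusters were found with the 42 genes and 78 other matrix genes left out, and named from markers that include none of the 42. BEC-like cells (Krt19, Epcam, Sox9) numbered 2612 and 2593 in sham and 1964 and 3798 in BDL. Mesenchymal-like cells (Pdgfrb, Pdgfra, Des, Lrat) numbered 186, 415, 71 and 133 in the same order, which is 6.50, 13.1, 3.41 and 3.28% of the cells. The deposited cell tables carry their own group name, and it contradicts the sample label for 2 of 4 libraries: the library labelled sham that is replicate 2 here is called BDL there, and the library labelled BDL that is replicate 2 here is called sham. Groups follow the sample labels here. Over summed BEC-like counts, 2 libraries with the same label were closer (chi-square per degree of freedom 25.7 for sham and 37.8 for BDL) than any 2 with different labels (74.7 to 138). Values are given per library below, so that sham replicate 1 and BDL replicate 1, whose names match, can be read alone. For the genes called, the groups did not overlap, which fixes the direction in this pair and makes it no separate evidence.

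Most of these genes were far more abundant in mesenchymal-like than in BEC-like cells. In all 4 libraries 37 of the 42 were over 2-fold higher in mesenchymal-like cells, against 10.9% of all 15304 genes compared. Col18a1, which encodes the basement membrane collagen whose cut end is endostatin, was the exception in the other direction: its BEC-like level was 374 to 659% of the mesenchymal-like level, over 2-fold in all 4 libraries as for 9.81% of all genes. Hspg2, Col4a3, Col7a1 and Fbln2, the other 4, were not over 2-fold one way in every library. Because the classes come from clusters of the same cells, these ratios are descriptions without a test.

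The fibril-forming collagens stood at one end of this range. The BEC-like level of Col1a1, a chain of type I collagen, was 0.104 and 0.221% of the mesenchymal-like level in sham and 0.0614 and 0.0801% in BDL. For Col3a1, the type III chain, these were 0.129 and 0.239% and 0.0446 and 0.0703%, and for Dcn, the small proteoglycan decorin that binds collagen fibrils, 0.112 and 0.197% and 0.0433 and 0.101%. Of the 16 mesenchymal markers used for naming, 9 that are near 0 in BEC-like cells had medians of 0.143 and 0.208% in sham and 0.0902 and 0.154% in BDL, measured the same way. These 9 were picked because their BEC-like level was under 1% of the mesenchymal-like level in every library. Their low range was thus fixed by that choice, and Rgs5, another of the 16, reached 298% in BDL replicate 1. In each library the percent for Col1a1, Col3a1 and Dcn lay within the range of the 9 markers. For all 3 genes this percent was highest in sham replicate 2, and higher in BDL replicate 2 than in BDL replicate 1. The part of free RNA or mixed barcodes in these few UMIs was not tested. At the other end, the BEC-like level was 87.4 to 115% of the mesenchymal-like level for Hspg2, the basement membrane proteoglycan perlecan, 38.7 to 43.1% for Fn1, fibronectin, and 10.8 to 15.96% for Col4a1, a chain of the main basement membrane collagen. Nid1, or nidogen 1, which links laminin to type IV collagen, changed place between groups, from 0.429 and 0.409% in sham to 3.33 and 4.83% in BDL.

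**Figure D1:**
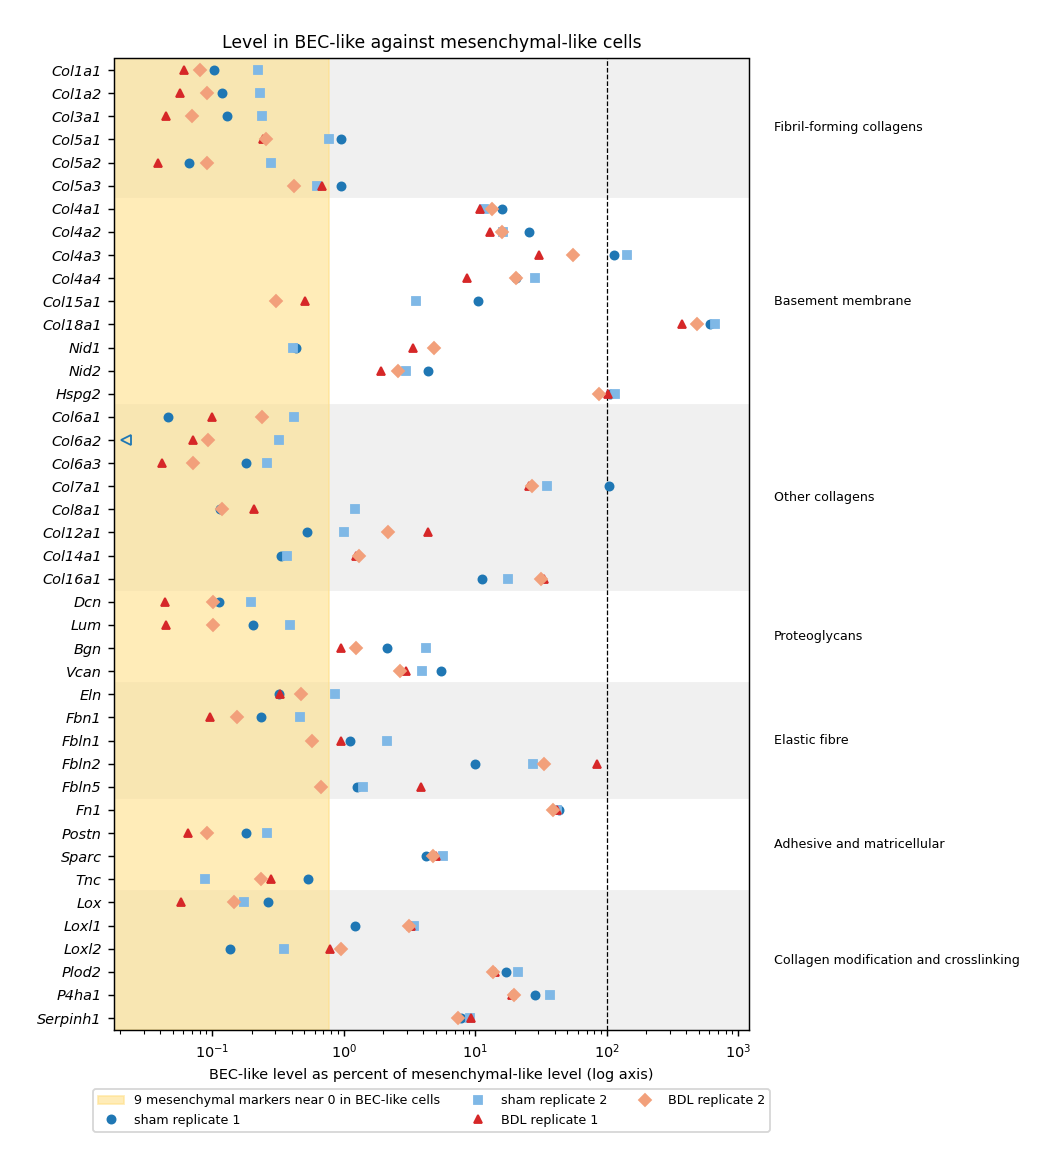
Level of each of the 42 genes in BEC-like cells as a percent of the level in mesenchymal-like cells (log axis). There is 1 point per library and a dashed line at equal levels. Shaded is the range of the 9 mesenchymal markers near 0 in BEC-like cells, picked because this percent was under 1% in every library. The open triangle stands for a count of 0. Fibril-forming collagens sit in or beside the shaded range, type IV collagen chains, Hspg2, Fn1 and Col18a1 lie above it in every library, and Nid1 is above it in the BDL libraries alone.

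In BEC-like cells, 4 of the 9 basement membrane genes and all 3 adhesive genes tested were higher after ligation, 1 basement membrane gene was lower, and none of the fibril-forming collagens passed the test. Of the 42 genes 37 had enough counts to be tested, with edgeR's quasi-likelihood test on UMIs summed per library and Benjamini-Hochberg adjustment over 16038 genes. Of these, 16 were higher in BDL and 3 lower at an adjusted p under 0.05. Among the 16, Tnc and Loxl2 passed the count filter only through the BDL libraries. Among all genes tested 14.3% were higher and 13.0% lower. The median log2 fold change was 0.39 over the 37 and -0.02 over all genes. The counts of members higher and lower were 7 and 1 without sham replicate 1 (3.7% and 3.77% of all genes), 13 and 0 without sham replicate 2 (4.69% and 4.02%), 18 and 5 without BDL replicate 1 (20.8% and 18.8%), and 15 and 4 without BDL replicate 2 (13.4% and 12%). Each of these fits leaves a group with 1 library, which is assumed to vary like the libraries of the other group, so a call that holds there rests on the spread of 1 group alone. Each class is a sum over many cells, so more cells with a transcript and more transcripts per cell are counted together. BDL cells held more UMIs each, and after thinning all sums to the shallowest one the counts were again 16 and 3 (14.0% and 13.3% of all genes), with Hspg2 in and Tnc too scarce to be tested.

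Type IV collagen and its partners were among the rises in BEC-like cells. Col4a1 had 86.1 and 55.9 CPM in sham and 205 and 227 CPM in BDL (log2 fold change 1.64, SE 0.17, adjusted p = 0.00142). Its partner chain Col4a2 had 86.9 and 56.6 CPM in sham and 155 and 205 CPM in BDL (log2 fold change 1.36, SE 0.20, adjusted p = 0.00479). In both genes the BDL libraries lay above the sham libraries without overlap, and the annotated starts of this pair lie head to head on opposite strands with their first exons overlapping, so that reads there could be given to either if strand was not used in counting. Nid1 had 2.47 and 1.90 CPM in sham and 22.9 and 36.6 CPM in BDL (log2 fold change 3.79, SE 0.31, adjusted p = 0.000654), the widest relative gap among the members, from a low start. Col18a1 had 164 and 153 CPM in sham and 262 and 309.6 CPM in BDL (log2 fold change 0.87, SE 0.12, adjusted p = 0.00428). Its BDL libraries were again both above both sham libraries. Hspg2 had 252 and 250.1 CPM in sham and 311 and 520.4 CPM in BDL (log2 fold change 0.75, SE 0.23, adjusted p = 0.0535). Both BDL libraries were higher, the adjusted p missed the threshold with edgeR, and it passed with DESeq2.

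The minor type IV chain Col4a3 went the other way. It had 15.9 and 18.1 CPM in sham and 9.45 and 7.26 CPM in BDL (log2 fold change -1.02, SE 0.21, adjusted p = 0.016), the BDL libraries lying below the sham libraries. The call was lost without sham replicate 1 (adjusted p = 0.0566) or sham replicate 2 (adjusted p = 0.114). Col4a4, which pairs with Col4a3 in the same trimer and overlaps it in the annotation, had 12.1 and 13.05 CPM in sham and 10.1 and 8.07 CPM in BDL and did not pass (adjusted p = 0.139). Col15a1, a basement membrane collagen related to Col18a1, had 3.70 and 2.02 CPM in sham and 1.99 and 2.04 CPM in BDL (adjusted p = 0.377). Nid2, the second nidogen, had 2.88 and 1.19 CPM in sham and 1.23 and 2.76 CPM in BDL (adjusted p = 0.957). Both were low in all 4 libraries, with overlapping groups.

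None of the 5 fibril-forming collagens tested passed in BEC-like cells with edgeR or DESeq2, and 1 (Col5a1, lower) had an unadjusted p under 0.05 with edgeR. Col1a1 had 3.18 and 3.44 CPM in sham and 2.53 and 5.43 CPM in BDL (log2 fold change 0.32, SE 0.41, adjusted p = 0.593). Col1a2, the other type I chain, had 4.62 and 4.27 CPM in sham and 2.74 and 5.56 CPM in BDL (adjusted p = 0.942). Col3a1 had 4.73 and 5.22 CPM in sham and 3.42 and 6.31 CPM in BDL (adjusted p = 0.975). The groups overlapped in all 3, with BDL replicate 1 lowest and BDL replicate 2 highest. Col5a1 and Col5a2, chains of the type V collagen that starts fibrils, had adjusted p values of 0.121 and 0.89, and Col5a3, at 0.356 to 0.616 CPM, was not tested.

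Among the other collagens, 3 of 5 tested were higher, all of the group that binds to the surface of fibrils. Col12a1 had 2.26 and 1.78 CPM in sham and 6.57 and 10.2 CPM in BDL (log2 fold change 2.09, SE 0.32, adjusted p = 0.00554). Col14a1 had 4.73 and 4.39 CPM in sham and 11.03 and 10.6 CPM in BDL (log2 fold change 1.27, SE 0.20, adjusted p = 0.00603). Col16a1 had 10.1 and 11.6 CPM in sham and 27.3 and 27.2 CPM in BDL (log2 fold change 1.35, SE 0.17, adjusted p = 0.0029). All 3 were scarce, and in each the BDL libraries were both above the sham libraries. Without sham replicate 1 the calls of Col12a1 (adjusted p = 0.0514) and Col14a1 (adjusted p = 0.0565) were lost. Col6a3, a chain of the beaded type VI collagen, and Col7a1, of the anchoring fibrils, had adjusted p values of 0.625 and 0.625, while Col6a1, Col6a2 and Col8a1 were at 1.51 CPM or less and were not tested.

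Of 4 proteoglycans 1 was higher and 1 lower, and of 5 elastic fibre genes 1 was higher. Vcan, the large proteoglycan versican, had 3.70 and 3.08 CPM in sham and 7.19 and 7.76 CPM in BDL (log2 fold change 1.16, SE 0.23, adjusted p = 0.0135), a call lost without sham replicate 1 (adjusted p = 0.0796) or sham replicate 2 (adjusted p = 0.0836). Fbln2, a fibulin of basement membranes and elastic fibres, had 18.7 and 26.3 CPM in sham and 67.1 and 88.9 CPM in BDL (log2 fold change 1.81, SE 0.24, adjusted p = 0.00312). Both BDL libraries were above both sham libraries. Dcn had 6.78 and 10.4 CPM in sham and 1.37 and 2.73 CPM in BDL (log2 fold change -1.995, SE 0.41, adjusted p = 0.0148), a call lost without sham replicate 2 (adjusted p = 0.105). Without BDL replicate 2 its log2 fold change was -2.61. Dcn in BEC-like cells stood within the range of the 9 near-0 markers, as a percent of the mesenchymal-like level. Those markers were picked for a percent under 1% in every library. The mesenchymal-like level of Dcn and the share of mesenchymal-like cells were both lower in BDL, and their part in this fall was not tested. Bgn, the related proteoglycan biglycan, had 53.01 and 78.99 CPM in sham and 34.7 and 66.4 CPM in BDL with overlapping groups (adjusted p = 0.452). Lum, Eln, Fbn1, Fbln1 and Fbln5 were at 0.274 to 3.90 CPM in BEC-like cells, and none passed, nor did any of these 5 have an unadjusted p under 0.05.

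All 3 adhesive genes that could be tested were higher. Fn1 had 292 and 273 CPM in sham and 516 and 777 CPM in BDL (log2 fold change 1.22, SE 0.20, adjusted p = 0.00658), a call lost without sham replicate 1 (adjusted p = 0.0655). Sparc, which binds collagen and calcium, had 152 and 137 CPM in sham and 356 and 389 CPM in BDL (log2 fold change 1.39, SE 0.11, adjusted p = 0.000625), with narrow spread in both groups. Tnc, tenascin C, a protein of remodelling tissue, rose from very few counts, 3 and 1 UMIs in sham and 14 and 75 in BDL (log2 fold change 2.96, SE 0.76, adjusted p = 0.0304). The sham counts of Tnc lay under the count filter. It was tested only through the BDL libraries, so its call could hardly be other than a rise. Its log2 fold change was 3.73 without sham replicate 1 (adjusted p = 0.133), the adjusted p was 0.162 without sham replicate 2, and without BDL replicate 2 it had too few counts to be tested. Postn, periostin, at 0.411 to 1.19 CPM, was not tested.

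Of the 6 genes that modify or crosslink collagen, 4 were higher and 1 lower. Serpinh1, the chaperone HSP47 that binds new collagen chains, had 31.3 and 30.01 CPM in sham and 53.6 and 58.02 CPM in BDL (log2 fold change 0.89, SE 0.12, adjusted p = 0.00379). Plod2, a lysyl hydroxylase, had 38.6 and 29.7 CPM in sham and 60.3 and 48.4 CPM in BDL (log2 fold change 0.69, SE 0.16, adjusted p = 0.0205). The crosslinking enzymes Loxl2 and Loxl1 rose as well. Loxl2 had 2 and 3 UMIs in sham and 29 and 99 in BDL (log2 fold change 3.21, SE 0.57, adjusted p = 0.00886). Its sham counts lay under the count filter, so like Tnc it was tested only through the BDL libraries. Loxl1 had 1.75 and 3.20 CPM in sham and 6.16 and 7.92 CPM in BDL (log2 fold change 1.54, SE 0.36, adjusted p = 0.0235). P4ha1, a subunit of prolyl hydroxylase, fell from 56.8 and 50.5 CPM to 34.6 and 31.8 CPM (log2 fold change -0.67, SE 0.12, adjusted p = 0.0089). In each of these 5 genes the groups did not overlap. Without sham replicate 1 the 5 calls were lost, with adjusted p values of 0.0544 for Serpinh1, 0.0824 for Plod2, 0.086 for Loxl2, 0.127 for Loxl1 and 0.0842 for P4ha1. Without sham replicate 2, Plod2 (adjusted p = 0.129) and P4ha1 (adjusted p = 0.0754) were lost too, and Loxl1 had a log2 fold change of 2.13. Lox, the founding lysyl oxidase, was at 0.205 to 0.942 CPM and did not pass. Of the 19 calls, those that passed in each of the 4 fits that leave out a library were Col4a1, Col4a2, Col18a1, Nid1, Col16a1, Fbln2 and Sparc. The share of all genes called that did so was not counted, so their number is no result about these members. Some members not called passed in 1 of these fits, again without a share over all genes. Without BDL replicate 1 the log2 fold change was 1.10 for Hspg2 (adjusted p = 1.13e-08), -0.59 for Col4a4 (adjusted p = 0.0418), -1.52 for Fbln5 (adjusted p = 0.0131) and 1.97 for Col6a1 (adjusted p = 0.0393), and without BDL replicate 2 it was -0.91 for Bgn (adjusted p = 0.000808).

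**Figure D2:**
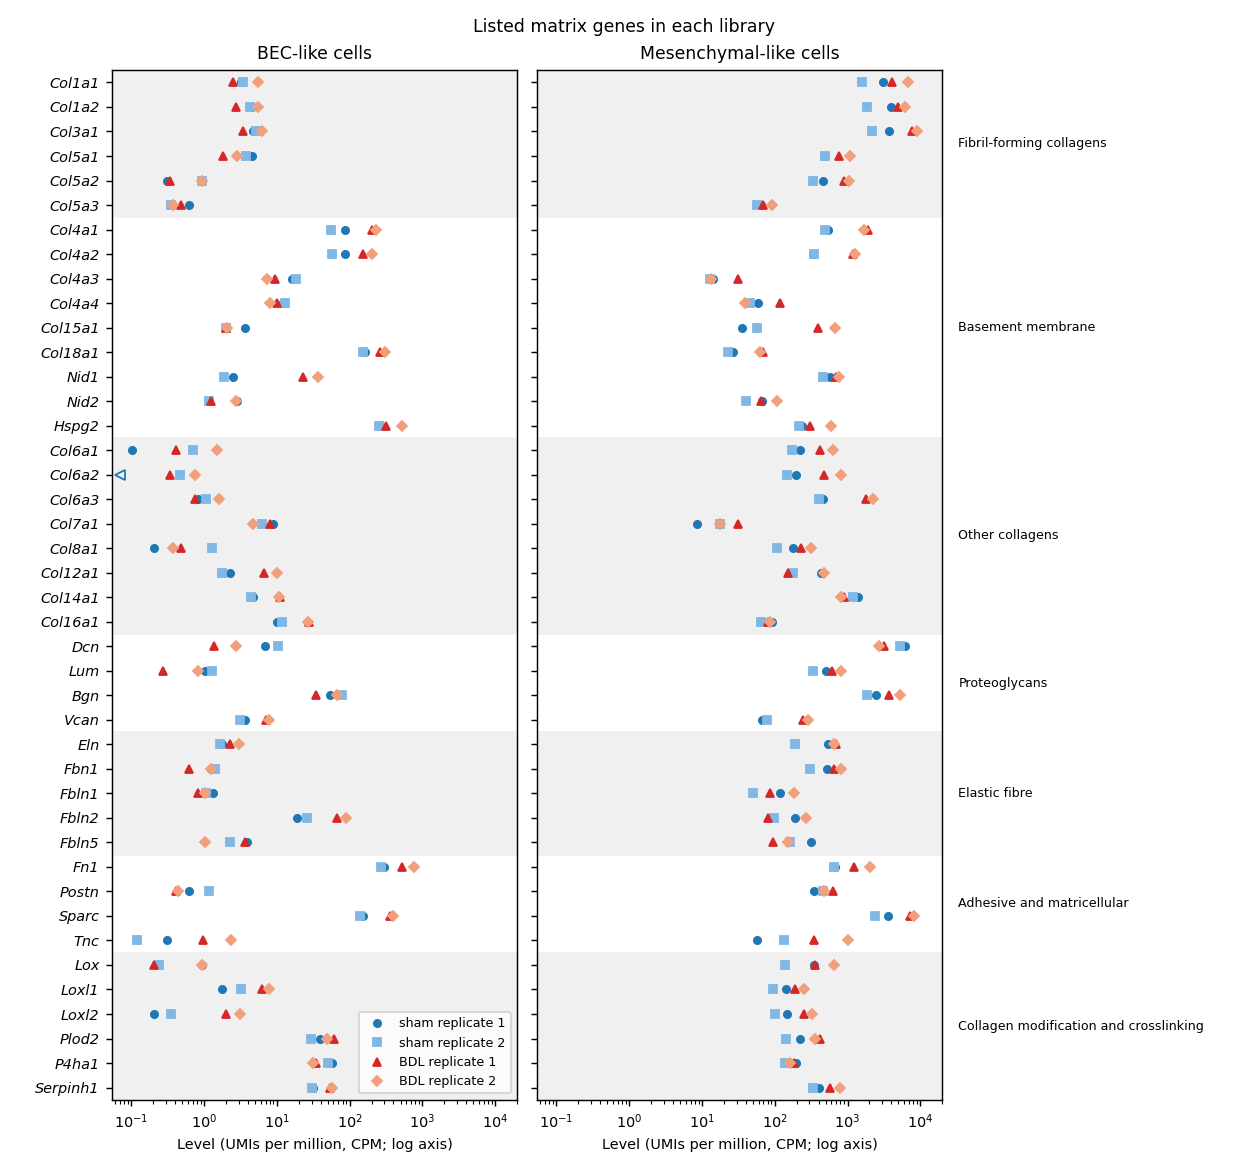
Level of each of the 42 genes (CPM, log axis) in BEC-like cells at left and mesenchymal-like cells at right, with 1 symbol per library and the genes grouped by role; the open triangle marks a count of 0. In BEC-like cells the 2 BDL libraries stand apart from the 2 sham libraries for Nid1, Col4a1 and Sparc but not for Col1a1, and in mesenchymal-like cells the widest gap is at Col15a1.

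For 5 of the 16 genes called higher, every BEC-like cluster of the BDL libraries lay above every cluster of the sham libraries, as for 12.2% of all 2293 genes called higher, and for the other 11 and the 3 called lower the clusters overlapped. Sham and BDL cells fell into different clusters, so clusters are compared between groups only as ranges, over those with at least 100 cells of a library. Nid1 ran from 1.01 to 4.17 CPM over clusters of the sham libraries and from 16.3 to 42.9 CPM over clusters of the BDL libraries, one of which is led by the division gene Mki67. Col4a1 ran from 52.1 to 135 CPM in sham and from 161 to 286 CPM in BDL, Sparc from 108 to 198 CPM and from 227 to 538 CPM, and Fn1 from 168 to 399 CPM and from 406 to 1026 CPM. Col16a1, the last of the 5, ran from 8.42 to 16.5 CPM and from 21.1 to 37.8 CPM. Among those that overlapped, Col4a2 was at 43.6 to 151 CPM and 121 to 253 CPM, Col18a1 at 81.3 to 290.5 CPM and 164 to 424 CPM and Plod2 at 9.28 to 46.96 CPM and 17.7 to 89.1 CPM. Fbln2 overlapped too, at 10.1 to 52.8 CPM and 48.9 to 120.1 CPM, and the sham cluster led by Car4 and Sgcd held more of it than the other sham clusters.

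The share of cells with a transcript was higher in both BDL libraries for some genes and lower for others. With every cell thinned to 1000 UMIs, Fn1 was seen in 21.4% and 20.7% of sham and 34.2% and 43.4% of BDL BEC-like cells. The exact 95% intervals, which cover counting error only, were 19.8 to 23.1% and 19.1 to 22.3% in sham and 32.1 to 36.4% and 41.8 to 44.96% in BDL. Col4a1 was seen in 7.14% and 5.63% and in 17.4% and 19.4%, and Sparc in 13.9% and 12.4% and in 29.4% and 32.3%. Nid1 was seen in 0.118% and 0.0804% of sham and 1.83% and 3.16% of BDL BEC-like cells, where 38.9% and 32.2% and 42.3% and 53.4% of mesenchymal-like cells held it. Col1a1 was seen in 0.394% and 0.281% of sham and 0.153% and 0.579% of BDL BEC-like cells, a share that overlapped between groups. P4ha1 went down, from 5.88% and 5.55% in sham to 3.21% and 3.21% in BDL, and Bgn overlapped, at 5.21% and 7.48% in sham and 3.51% and 5.66% in BDL. Of the 37 members with enough counts to be tested, 18 had a higher share in both BDL libraries than in both sham libraries, against 28.2% of all 16038 genes tested, and 6 a lower share, against 30.5%. With the other 5 members these counts were 21 and 7. The thinning left out 77 and 105 BEC-like sham cells with fewer UMIs and none of the BDL cells. Before thinning 29 of the 37 had a higher share in both BDL libraries, as did 80.5% of all genes tested. Unthinned, Nid1 was seen in 0.574 and 0.578% of sham and 9.88 and 15.2% of BDL BEC-like cells.

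In mesenchymal-like cells all 42 genes could be tested, and 15 were higher after ligation and none lower by edgeR's test. Of all 8792 genes tested 6.24% were called, 2.39% as higher and 3.86% as lower. At an unadjusted p under 0.05, 26 members were higher and 3 lower (Col14a1, Dcn and Fbln5), against 9.55% and 12.6% of all genes. With DESeq2 16 were higher and 1 lower (Dcn) at an adjusted p under 0.05, against 1.9% and 2.8% of the 7113 genes it gave an adjusted p. The median log2 fold change was 0.89 over the 42 genes and 0.01 over all genes. The rises spanned type III, IV, V, VI, XV and XVIII collagen, versican, fibronectin, Sparc and tenascin C. The number of members called higher was 24 without sham replicate 1 (2.99% of all genes), 5 without sham replicate 2 (0.42%), 29 without BDL replicate 1 (5.0%), 16 without BDL replicate 2 (2.63%) and 11 after thinning to the shallowest sum (1.39%), where Col3a1, Fn1, Plod2 and Sparc were lost. In 31 of the 42 genes both BDL libraries lay above both sham libraries, as in 28.3% of all genes tested. Of the 37 members tested in both classes 9 passed as higher in both, against 0.91% of all 8464 such genes.

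The fibril-forming collagens were abundant here, and Col3a1 and Col5a2, 2 of the 6, passed as higher. Col3a1 had 3669 and 2180.4 CPM in sham and 7687 and 8976 CPM in BDL (log2 fold change 1.48, SE 0.35, adjusted p = 0.0356). Col5a2 had 466 and 339 CPM in sham and 894 and 1036 CPM in BDL (log2 fold change 1.23, SE 0.24, adjusted p = 0.018). Both BDL libraries exceeded both sham libraries in each, but without sham replicate 2 the adjusted p was 0.155 for Col3a1 and 0.184 for Col5a2. Col1a1 had 3069 and 1557 CPM in sham and 4127 and 6782 CPM in BDL, again without overlap (log2 fold change 1.20, SE 0.38, adjusted p = 0.0955). The sham libraries differed from each other by a larger ratio than sham replicate 1 did from BDL replicate 1, and the gene passed with DESeq2. Col1a2 had 3938 and 1848 CPM in sham and 4859 and 6133 CPM in BDL (adjusted p = 0.191). Col5a1 and Col5a3 had log2 fold changes of 0.89 and 0.38 and adjusted p values of 0.0652 and 0.462.

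Of the 9 basement membrane genes 4 rose. Col15a1 had 35.3 and 57.5 CPM in sham and 393 and 664 CPM in BDL (log2 fold change 3.41, SE 0.35, adjusted p = 0.002), the largest change of any member in this class. Col4a2 had 338 and 348 CPM in sham and 1199.6 and 1284 CPM in BDL (log2 fold change 1.81, SE 0.23, adjusted p = 0.00472). Col4a1 had 539.5 and 484 CPM in sham and 1891 and 1683 CPM in BDL (log2 fold change 1.76, SE 0.25, adjusted p = 0.00601). The sham pair agreed closely for both chains. Col18a1, the scarce one here, had 26.8 and 23.2 CPM in sham and 70.1 and 63.5 CPM in BDL (log2 fold change 1.37, SE 0.31, adjusted p = 0.0314). Without sham replicate 2 the adjusted p was 0.0525 for Col4a1 and 0.187 for Col18a1. Nid1, which rose in BEC-like cells, had 575 and 464 CPM in sham and 687 and 758 CPM in BDL (log2 fold change 0.44, SE 0.22, adjusted p = 0.292). Hspg2 had 240.1 and 217 CPM in sham and 306 and 595 CPM in BDL (adjusted p = 0.0964), and Nid2, Col4a3 and Col4a4 did not pass either (adjusted p from 0.245 to 0.626).

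All 3 type VI chains, which form one trimer, rose. Col6a3 had 458 and 408 CPM in sham and 1805 and 2267 CPM in BDL (log2 fold change 2.19, SE 0.25, adjusted p = 0.003). Col6a2 had 199 and 149 CPM in sham and 479 and 809.6 CPM in BDL (log2 fold change 1.85, SE 0.28, adjusted p = 0.00781). Col6a1 had 225 and 172 CPM in sham and 415 and 628 CPM in BDL (log2 fold change 1.36, SE 0.26, adjusted p = 0.0161). Their BDL libraries were above their sham libraries, with BDL replicate 2 highest for each. Without sham replicate 2, Col6a2 (adjusted p = 0.09) and Col6a1 (adjusted p = 0.17) were lost and Col6a3 kept. The fibril-surface collagens that rose in BEC-like cells did not pass over this whole class. Col12a1 had 432 and 179 CPM in sham and 149.95 and 474 CPM in BDL (log2 fold change 0.03, SE 0.48, adjusted p = 0.982). Col14a1 had 1408 and 1196 CPM in sham and 888 and 809 CPM in BDL (log2 fold change -0.66, SE 0.24, adjusted p = 0.143). Col16a1 had 90.4 and 65.5 CPM in sham and 81.8 and 85.5 CPM in BDL (log2 fold change 0.08, SE 0.26, adjusted p = 0.902). The groups overlapped for Col12a1 and Col16a1, and Col14a1 was lower in both BDL libraries. For Col12a1 the value rests on 35 cells of 1 cluster, described below, which held 82.4% and 79.02% of its sham UMIs: without them it had 92.6 and 41.9 CPM in sham and 143 and 382 CPM in BDL (log2 fold change 1.99, SE 0.47, adjusted p = 0.0277). Col8a1 and Col7a1 had adjusted p values of 0.0867 and 0.506.

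Among proteoglycans, Vcan rose. Vcan had 67.8 and 79.1 CPM in sham and 241 and 288 CPM in BDL (log2 fold change 1.79, SE 0.24, adjusted p = 0.00542). Dcn had 6065 and 5298 CPM in sham and 3165 and 2708 CPM in BDL (log2 fold change -0.99, SE 0.30, adjusted p = 0.0855). Dcn was thus lower in both BDL libraries than in both sham libraries, short of the threshold, and it passed as lower with DESeq2. Bgn had 2473 and 1871 CPM in sham and 3657 and 5342 CPM in BDL (adjusted p = 0.0855). Lum, the proteoglycan lumican, had 507 and 337 CPM in sham and 621 and 803 CPM in BDL (adjusted p = 0.13). None of the 5 elastic fibre genes passed over all 4 libraries with edgeR or DESeq2, and 2 had an unadjusted p under 0.05 with edgeR (Fbn1 higher and Fbln5 lower). Eln, the elastin gene itself, had 545 and 192 CPM in sham and 687 and 644 CPM in BDL. Fbn1, which makes the fibrillin scaffold, had 524 and 305 CPM in sham and 645 and 816 CPM in BDL. Fbln5, a fibulin needed for elastic fibres, had 311 and 161 CPM in sham and 95.4 and 154 CPM in BDL, lower in both BDL libraries. Their adjusted p values were 0.23, 0.126 and 0.135, with 0.375 for Fbln1 and 0.769 for Fbln2.

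Of the 4 adhesive genes 3 rose. Sparc had 3599 and 2421 CPM in sham and 7145 and 8238 CPM in BDL (log2 fold change 1.32, SE 0.33, adjusted p = 0.0433). Fn1 had 678 and 651 CPM in sham and 1246 and 2011 CPM in BDL (log2 fold change 1.24, SE 0.28, adjusted p = 0.0292). Tnc had 57.9 and 135 CPM in sham and 345 and 1006 CPM in BDL (log2 fold change 2.70, SE 0.51, adjusted p = 0.016). The BDL libraries were uneven for Tnc, with BDL replicate 2 the higher; its log2 fold change was 3.53 without sham replicate 2 and 1.77 without BDL replicate 2, and it passed in both cases. Without sham replicate 2 Sparc had an adjusted p of 0.18 and Fn1 of 0.167, and without BDL replicate 2 Fn1 had 0.0518. Postn had 343 and 458 CPM in sham and 627 and 479.8 CPM in BDL (adjusted p = 0.424).

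Of the 6 modifying and crosslinking genes 2 rose. Loxl2 had 149.7 and 101 CPM in sham and 251 and 328 CPM in BDL (log2 fold change 1.18, SE 0.25, adjusted p = 0.0256). Plod2 had 226 and 141 CPM in sham and 425 and 353 CPM in BDL (log2 fold change 1.05, SE 0.26, adjusted p = 0.0459). Both were lost without sham replicate 2, with adjusted p values of 0.257 and 0.357. Lox, Loxl1 and Serpinh1 had log2 fold changes of 1.03, 0.88 and 0.85 and adjusted p values of 0.16, 0.076 and 0.0628, and P4ha1 gave 0.999. The calls that passed in each of the 4 fits that leave out a library were Col4a2, Col15a1, Col6a3, Vcan and Tnc. The share of all genes called in this class that did so was not counted.

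**Figure D3:**
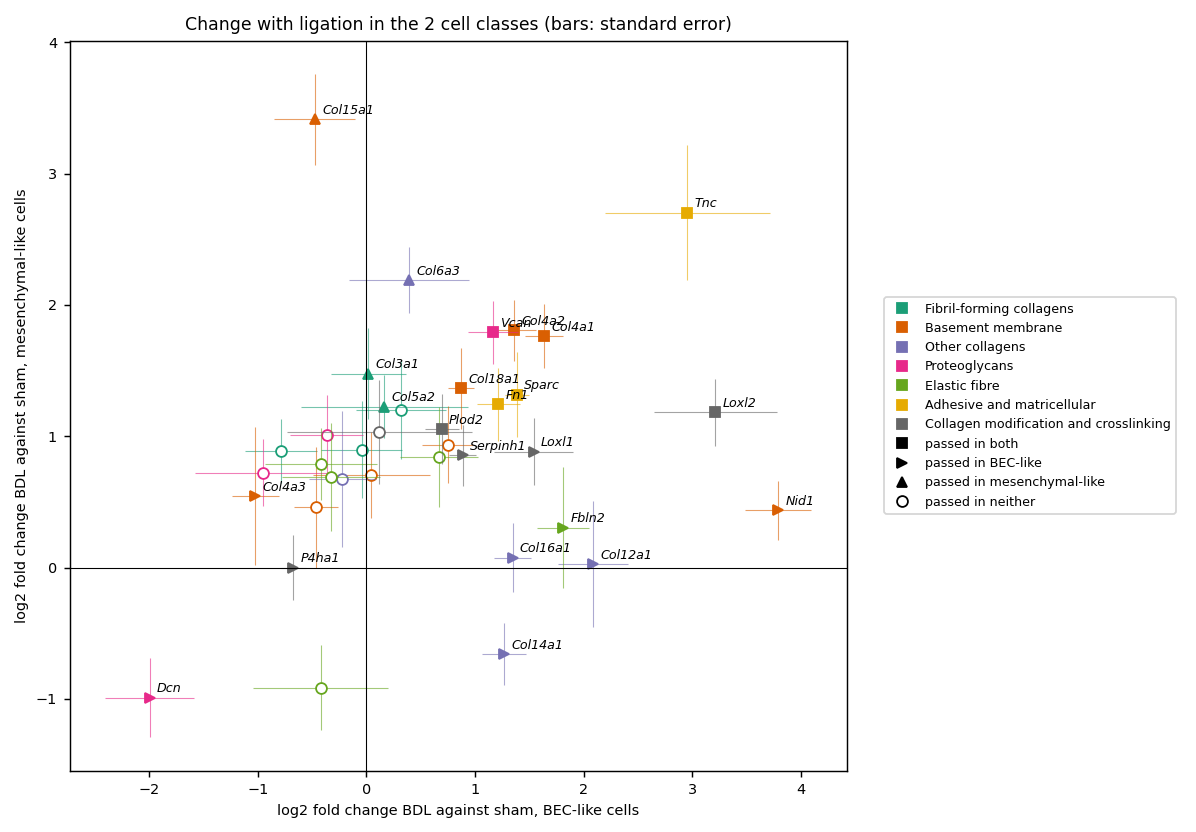
Log2 fold change of BDL against sham in BEC-like cells (x axis) and mesenchymal-like cells (y axis) for the 37 genes tested in both, with standard errors as bars, colour for role and symbol shape for the class in which the gene passed an adjusted p of 0.05. Col4a1, Col4a2, Sparc and Fn1 lie near the diagonal, Nid1 at 3.79 against 0.44 lies far to the right, and Col15a1 at -0.47 against 3.41 lies far above.

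Members not called over all 4 libraries in mesenchymal-like cells are given here where they passed in a fit that leaves out a library. The share of all uncalled genes that passed in the same way was not counted, so their number is no result about these members. Without sham replicate 1 the log2 fold change was 1.71 for Col1a1 (adjusted p = 0.000705), 1.48 for Col1a2 (adjusted p = 0.00452), 1.25 for Col8a1 (adjusted p = 0.0152), 1.17 for Bgn (adjusted p = 0.0354), 1.70 for Eln (adjusted p = 0.000296), 1.17 for Fbn1 (adjusted p = 0.023), 1.35 for Fbln1 (adjusted p = 0.0136), 1.78 for Lox (adjusted p = 0.000155) and 1.15 for Loxl1 (adjusted p = 0.0339). All of these but Eln passed as higher without BDL replicate 1 as well. That fit also gave 1.09 for Col5a1 (adjusted p = 0.00404), 0.96 for Nid2 (adjusted p = 0.0387), 1.30 for Hspg2 (adjusted p = 0.000223), -1.15 for Dcn (adjusted p = 0.0396), 0.86 for Lum (adjusted p = 0.0347), 0.86 for Fbln2 (adjusted p = 0.0362) and 1.02 for Serpinh1 (adjusted p = 0.0076). Without BDL replicate 2 it was -1.001 for Col12a1 (adjusted p = 0.0462), 1.15 for Col4a4 (adjusted p = 0.023), 0.93 for Eln (adjusted p = 0.0438) and -1.28 for Fbln5 (adjusted p = 0.007). Col12a1 thus passed as lower there, and its log2 fold change was 0.72 without sham replicate 1.

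The difference between the classes was tested as an interaction in 1 fit with the mouse as a block. Of all 15304 genes tested 5.23% passed: 2.97% had a change that was more positive in BEC-like cells and 2.27% one more positive in mesenchymal-like cells, and among the 42 members these were 6 and 5. More positive in BEC-like cells were Nid1 (log2 difference 3.32, SE 0.32, adjusted p = 4.08e-06), Col12a1 (2.14, SE 0.40, adjusted p = 0.00288), Col14a1 (1.93, SE 0.29, adjusted p = 0.000347), Col16a1 (1.26, SE 0.32, adjusted p = 0.0267), Fbln2 (1.62, SE 0.43, adjusted p = 0.0323) and Loxl2 (2.01, SE 0.55, adjusted p = 0.0373). More positive in mesenchymal-like cells were Col15a1 (log2 difference -3.94, SE 0.45, adjusted p = 2.82e-05), Col6a3 (-1.82, SE 0.47, adjusted p = 0.0262), Col5a1 (-1.71, SE 0.31, adjusted p = 0.0023), Col3a1 (-1.53, SE 0.35, adjusted p = 0.0115) and Bgn (-1.40, SE 0.31, adjusted p = 0.0101). The BEC-like level was only 0.0417 to 0.262% of the mesenchymal-like level for Col6a3 and 0.0446 to 0.239% for Col3a1. The part of free RNA in it was not tested. The median over all genes was 0.10 under this scaling, and 0.05 with DESeq2's size factors, where Fbln2 (adjusted p = 0.062) and Loxl2 (adjusted p = 0.0509) no longer passed. Col4a1, Fn1, Sparc and Serpinh1, whose log2 fold changes were close in the classes, had log2 differences of -0.10, -0.02, 0.05 and 0.04 with standard errors of 0.27, 0.25, 0.26 and 0.26. For Col1a1 the difference was -0.99, SE 0.36, adjusted p = 0.142.

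Leaving out 1 library changed several of these differences. Without sham replicate 1, the adjusted p was 0.0717 for Col12a1, 0.366 for Col16a1, 0.065 for Col6a3, 0.369 for Fbln2 and 0.565 for Loxl2. Without sham replicate 2 it was 0.437 for Bgn, 0.405 for Col3a1, 0.39 for Col6a3 and 0.0868 for Loxl2. Without BDL replicate 1 it was 0.0559 for Col16a1 and 0.0978 for Fbln2, and without BDL replicate 2 it was 0.195 for Col16a1 and 0.237 for Loxl2. Members not called over all 4 libraries passed too: without sham replicate 1 the log2 difference was -1.66 for Col1a2 (adjusted p = 0.0436), -3.05 for Col8a1 (adjusted p = 0.00114) and -2.27 for Lum (adjusted p = 0.0276), and without BDL replicate 2 it was -1.72 for Dcn (adjusted p = 0.0375). Some of the differences also rest on 1 small cluster of 35 mesenchymal-like cells, led by Slit3 and described next, most of them from sham. Without these cells, an alternative chosen after the values were seen, the log2 difference was -3.09 for Fbln2 (adjusted p = 0.000439), the opposite direction, and 0.09 for Col12a1 (adjusted p = 0.954), while Col16a1 (adjusted p = 0.3) and Loxl2 (adjusted p = 0.163) were lost. Nid1, Col14a1, Col15a1 and Col5a1 passed without each library in turn and without this cluster.

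The mesenchymal-like class was a mixture whose parts differed between groups. At a finer clustering it held 4 clusters, again found without the matrix genes. Markers are counted here where they were over 2-fold the rest of the mesenchymal-like class. One, led by Colec10 and Fcna and carrying 7 of 10 stellate cell markers, held 104 and 312 sham cells and 28 and 21 BDL cells. A second, led by C7 and Igfbp3 and carrying 4 of 7 smooth muscle markers (Myh11, Synpo2, Lmod1 and Tagln) and 2 of 9 portal fibroblast markers (Dpt and Gli1), held 64 and 88 sham and 4 and 2 BDL cells. Another, led by Fbn2 and Serpina3n, held 2 and 2 sham and 38 and 105 BDL cells, and carried 2 of 9 portal fibroblast markers (Thy1 and Cd34), 2 of 7 smooth muscle markers (Actg2 and Acta2) and no stellate marker by this count. Against cells outside the class, 8 of 10 stellate markers (among them Lrat, Hand2, Reln and Colec11) were over 2-fold in the Fbn2-led cells, as were 8 in the C7-led, 9 in the Colec10-led and 2 in the Slit3-led cells. The smallest, led by Slit3 and Adgrd1 and carrying 6 of 9 portal fibroblast markers, held 16 and 13 sham and 1 and 5 BDL cells. Values by cluster are descriptions, since the same cells made the clusters.

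Which of these cells held the collagen transcripts changed with the group. In the sham libraries the Slit3-led cells, 8.60 and 3.13% of the class, held 83.02% and 68.7% of its Col1a1 UMIs, and their Col1a1 level was 14467 and 10224 CPM against 364 and 424 CPM in the Colec10-led cells. In the BDL libraries the Fbn2-led cells held 84.5% and 87.4%, at 5526 and 7040.1 CPM. Col3a1 followed the same order, with 68.6% and 56.3% in Slit3-led cells in sham and 76.2% and 88.1% in Fbn2-led cells in BDL. Fbln2 was the extreme, with 96.3% and 96.7% in Slit3-led sham cells and 97.6% and 88.5% in Fbn2-led BDL cells. Col15a1 was found mainly in Fbn2-led cells in BDL, 97.5% and 95.5% of its UMIs at 608 and 753 CPM. Dcn was different, since 71.3% and 85.3% of its sham UMIs were in the Colec10-led cells, where its level was 9204 and 6976 CPM in sham and 6949 and 8657 CPM in BDL, against 1463 and 1788 CPM in the Fbn2-led BDL cells.

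**Figure D4:**
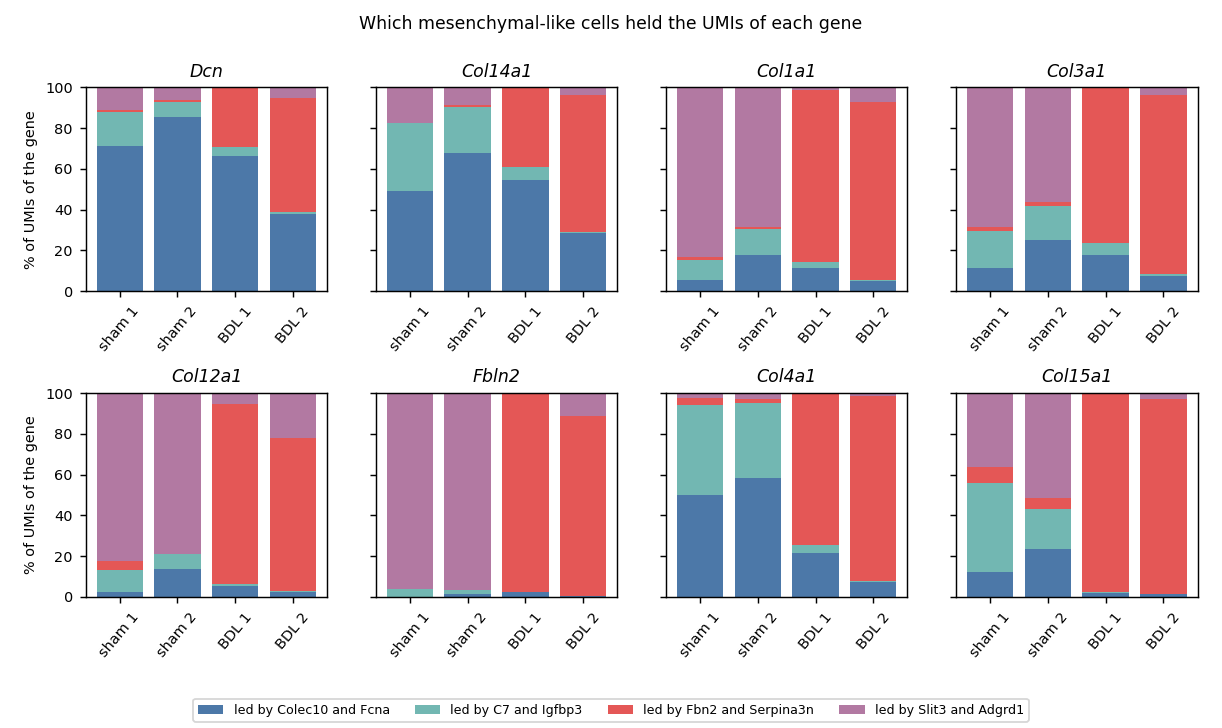
Percent of each gene's UMIs in mesenchymal-like cells (y axis) held by each of 4 finer clusters, with 1 bar per library and 1 panel for each of 8 genes. Col1a1, Col3a1, Col12a1 and Fbln2 lie mainly in the Slit3-led cells in sham and in the Fbn2-led cells in BDL, and Dcn and Col14a1 have their largest share in the Colec10-led cells except in BDL replicate 2.

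The sham level of the class rested on the few Slit3-led cells for several genes. Without them, an alternative chosen after these values were seen, Col1a1 was at 633 and 545 CPM in sham and 4103 and 6500.4 CPM in BDL, and Col1a2 at 946 and 682 CPM in sham and 4861 and 5952 CPM in BDL. Lox was at 37.7 and 31.2 CPM in sham and 360.4 and 624 CPM in BDL, and Fbln2 at 8.57 and 3.57 CPM in sham and 80.3 and 246 CPM in BDL. Vcan, called over the whole class, was at 15.4 and 16.1 CPM in sham and 243 and 289 CPM in BDL. Because the cells removed held most of the Col1a1 and Fbln2 UMIs in sham and numbered 1 and 5 in BDL, their removal lowers the sham level of such genes by construction. In that fit 29 of the 42 genes passed as higher, against 4.69% of all genes, and 1 as lower, against 6.1%, and these counts are no added evidence of a change.

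Within the Colec10-led cells alone, the only cluster with at least 20 cells in every library, 4 of the 5 fibril-forming collagens tested (Col1a1, Col1a2, Col3a1 and Col5a2) were higher in BDL. Of the 33 members with enough counts there, 12 were higher, against 0.768% of all genes, and none lower, against 0.528%. At an unadjusted p under 0.05 none was lower either. Col1a1 had 364 and 424 CPM in sham and 1564 and 2736 CPM in BDL (log2 fold change 2.35, SE 0.32, adjusted p = 0.0103). Col3a1 had 890.04 and 843 CPM and 4498 and 5764 CPM (log2 fold change 2.48, SE 0.30, adjusted p = 0.00831). Lox had 6.01 and 24.7 CPM and 187 and 313 CPM (log2 fold change 3.65, SE 0.52, adjusted p = 0.0119). Lox and Vcan lay under the count filter in sham here, so both came among the 12 only through the BDL libraries. Sparc had 1651 and 1829 CPM and 5785 and 7069 CPM (log2 fold change 1.80, SE 0.31, adjusted p = 0.0224). Dcn had 9204 and 6976 CPM and 6949 and 8657 CPM with overlapping groups (log2 fold change -0.13, SE 0.35, adjusted p = 0.902), and Col15a1 was at 9.02 and 20.96 CPM and 25.7 and 89.5 CPM, too few UMIs to be tested. Of the genes called over the whole class, Col15a1 and Col18a1 could not be tested within these cells, and 5 were tested and did not pass. Their log2 fold changes were 1.18 for Col4a1, 1.05 for Col4a2 and 1.29 for Tnc, smaller than over the class, and 2.11 for Col6a2 and 1.41 for Plod2, larger than over the class, with adjusted p values of 0.064, 0.0705, 0.141, 0.0547 and 0.109 in this order.

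The 3 other named classes were too small to be fitted and are given as values. Endothelial-like cells (40 and 122 in sham, 19 and 34 in BDL) held the basement membrane gene Nid1 and the matricellular gene Sparc: Nid1 was at 272 and 179 CPM in sham and 569 and 709 CPM in BDL, and Sparc at 399.99 and 489 CPM in sham and 793 and 1251 CPM in BDL. Not all abundant members were higher in BDL there. Bgn was at 399.99 and 344 CPM in sham and 224 and 168 CPM in BDL. Hspg2 was at 352 and 220 CPM in sham and 327 and 328 CPM in BDL. Hepatocyte-like cells (2 and 32 in sham, 7 and 33 in BDL) lay in different clusters by group, one with 2 and 31 of the sham cells and another with 6 and 33 of the BDL cells. They held 0 and 0 UMIs in sham and 19 and 116 UMIs in BDL of Nid1 and 0 and 0 UMIs in sham and 5 and 25 UMIs in BDL of Col12a1. In BDL the BEC-like level of Nid1 was 8.22 and 7.60% of the hepatocyte-like level, and over the hepatocyte markers this percent ran from 0.0261% for Serpina1a to 45.1% for Ttr. For Col12a1 this percent was 8.98 and 9.83% in BDL. For Fn1 it was 223 and 65.0% in sham and 43.5 and 28.5% in BDL. The part of hepatocyte RNA in the rises of Nid1, Col12a1 and Fn1 was not tested. Macrophage-like cells (10 and 10 in sham, 18 and 53 in BDL) held 0 and 0 UMIs in sham and 0 and 3 UMIs in BDL of Nid1. Other members stood higher there. Col18a1 was at 152 and 288.5 CPM in BDL macrophage-like cells, beside 262 and 309.6 CPM in BDL BEC-like cells. For Col4a1 these levels were 127 and 198 CPM beside 205 and 227 CPM. For Fn1 they were 330 and 1061 CPM beside 516 and 777 CPM. The source of these transcripts was not tested. Col1a1 and Dcn were at 3 and 6 UMIs or fewer in every library of these 3 classes, whose sums are too small to fix a level. In endothelial-like cells such counts made 16.0 and 13.8 CPM of Col1a1 in sham and 17.2 and 0 CPM in BDL. For Dcn they made 32.0 and 41.3 CPM in sham and 0 and 0 CPM in BDL.

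Among 78 other matrix genes, listed by name, calls went both ways. In BEC-like cells 54 could be tested, of which 9 were higher and 9 lower, and in mesenchymal-like cells 60, of which 6 were higher and 5 lower. Among all genes tested these shares were 14.3% and 13.0% in BEC-like cells, close to those of the list, and 2.39% and 3.86% in mesenchymal-like cells. Ltbp2, a latent TGF-beta binding protein of elastic fibres, was at 1.85 and 2.02 CPM in sham and 31.03 and 50.5 CPM in BDL (log2 fold change 4.43, SE 0.32, adjusted p = 0.000458) in BEC-like cells. In mesenchymal-like cells it was at 83.3 and 91.8 CPM in sham and 282 and 493 CPM in BDL (log2 fold change 2.09, SE 0.29, adjusted p = 0.00601). Thbs1, the adhesive protein thrombospondin 1, was at 382 and 317 CPM in sham and 1090.2 and 1221 CPM in BDL (log2 fold change 1.75, SE 0.13, adjusted p = 0.000458) in BEC-like cells. Colgalt1, which adds galactose to collagen, was at 28.7 and 24.8 CPM in sham and 74.9 and 94.7 CPM in BDL (log2 fold change 1.69, SE 0.15, adjusted p = 0.000871), and Ccn2, a matricellular growth factor, at 42.7 and 38.2 CPM in sham and 78.97 and 93.8 CPM in BDL (log2 fold change 1.12, SE 0.13, adjusted p = 0.00207) in the same cells. Smoc1, a relative of Sparc, was lower in both classes, at 265 and 228 CPM in sham and 78.6 and 77.1 CPM in BDL (log2 fold change -1.64, SE 0.11, adjusted p = 0.000386) in BEC-like cells and 162 and 121 CPM in sham and 21.4 and 13.2 CPM in BDL (log2 fold change -3.15, SE 0.34, adjusted p = 0.00256) in mesenchymal-like cells. In mesenchymal-like cells the fibrillin Fbn2 was at 153 and 56.7 CPM in sham and 726 and 793 CPM in BDL (log2 fold change 2.87, SE 0.38, adjusted p = 0.00472), while Efemp1, a fibulin, fell, at 137 and 187 CPM in sham and 42.8 and 28.2 CPM in BDL (log2 fold change -2.31, SE 0.33, adjusted p = 0.00605), as did the small proteoglycan Podn, at 229 and 161 CPM in sham and 56.5 and 65.3 CPM in BDL (log2 fold change -1.70, SE 0.26, adjusted p = 0.00781).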

How the data were processed

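Per the labels' protocols, fixed cells of 4 mice were barcoded in split pools (Parse Biosciences Evercode kit), primed with both oligo(dT) and random hexamers. The authors deposited UMI counts per cell and gene, without normalization, on GRCm39 per the submitters' processing notes; the aligner, the counting of strand and the authors' cell filters are not given in the sources used here. The members and lists were chosen with earlier results of these data known. Cells with under 500 UMIs or over 20% mitochondrial UMIs were left out (7 and 10 cells, respectively), and Scrublet called 14 doublets (0.115% of cells, too few to show that it worked). Counts were normalized and log-transformed, 2000 variable genes without matrix genes gave 30 principal components, and Leiden clusters (scanpy 1.11.5, resolution 1, 20 neighbours) were named from at least 3 markers over 2-fold the other clusters; a cluster with fewer than 5 markers and none among its 10 leading genes stayed unnamed, a rule set after seeing the clusters.

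UMIs were summed per library and class and tested with edgeR 4.0.16 (TMM, default filter, quasi-likelihood F test, two-sided, threshold 0.05 on the Benjamini-Hochberg adjusted p, n = 2 per group), with DESeq2 1.42.0 as an alternative. CPM are UMIs per 1000000 of the class total, before TMM factors (0.950 to 1.06). With 2 against 2 libraries an exact permutation test cannot go below p = 0.33. Nothing says that the libraries came from separate days or batches, so p-values measure the spread between these mice only. In simulated data the BEC-like fit recovered 92% of 4-fold and 48% of 2-fold changes, the mesenchymal-like fit 70% and 12%. The interaction fit recovered 18% of 4-fold changes, placed in BEC-like cells alone. That simulation set a larger spread for mesenchymal-like cells than the fitted one and no mouse effect, so its percent cannot be compared with the others. Values are named for every member that passed in either fit or in the interaction, or that reached a mean of 50 CPM, and the other members are given by range; of the other matrix genes, the 5 with the smallest adjusted p in each class are named. Alternatives were the scaling, the count filter, the test, each library left out, the clustering, thinning, doublet scores, single sublibraries, and removal of cells or clusters.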

Additional observations from a re-analysis of the deposited data

Results flagged for a closer look

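For 11 genes the log2 difference between BDL and sham itself differed between BEC-like and mesenchymal-like cells, by the interaction term at an adjusted p under 0.05 (BEC-like minus mesenchymal-like). It was 3.32 for Nid1, 2.14 for Col12a1, 2.01 for Loxl2, 1.93 for Col14a1, 1.62 for Fbln2 and 1.26 for Col16a1. It was -3.94 for Col15a1, -1.82 for Col6a3, -1.71 for Col5a1, -1.53 for Col3a1 and -1.4 for Bgn. Without the 35 Slit3-led mesenchymal-like cells the difference turned to -3.09 for Fbln2, was 0.09 for Col12a1, and no longer passed for Col12a1, Col16a1 and Loxl2. With 2 libraries per group, no value could be set apart as an outlier within its group.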

How the results depend on the processing

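No paired analysis was possible because no label numbers the replicates (the numbers here only name libraries) and nothing ties a sham mouse to a BDL mouse. Of single-gene results recomputed under the alternatives, 342 of BEC-like cells kept their direction and side of the threshold, 45 kept the direction alone and 2 reversed; for mesenchymal-like cells these were 201, 22 and 0, and for the interaction 97, 23 and 1. The last was Fbln2, at -3.09 without the Slit3-led cluster, an alternative added after the data were seen. The others came without BEC-like cells holding any mesenchymal marker UMI, a setting that removed most BDL cells since Rgs5 is also a BEC gene: Plod2 -0.62 (adjusted p = 0.124) and Vcan -0.17 (adjusted p = 0.832). Without cells holding a UMI of the 9 near-0 markers, all 19 calls stayed.

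In BEC-like cells, leaving out 1 library gave 1294 to 6476 genes called (4375 with all), 7 to 18 members higher and 0 to 5 lower. Single sublibraries 1 to 8 gave 618, 2333, 1820, 2153, 2010, 2032, 2256 and 1810 genes; members higher were 6, 9 and 9 in sublibraries 1, 2 and 8, and members lower 0, 1, 1, 1 and 1 in sublibraries 1, 2, 3, 7 and 8.

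In mesenchymal-like cells, leaving out 1 library gave 130 to 1289 genes (549 with all), 5 to 29 members higher and 0 to 2 lower. No filter gave 1084 genes, with 26 members higher and 2 lower, the DESeq2 test 334 genes and 1 lower, thinning 261 genes, removal of the top doublet scores 1 lower, the largest cluster 54 genes, and removal of the Slit3-led cluster 913 genes, with 29 higher and 1 lower.

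In the interaction, leaving out 1 library gave 290 to 869 genes (801 with all), 2 to 5 members larger in BEC-like and 2 to 7 in mesenchymal-like cells, a filter of 10 CPM gave 3 larger in BEC-like cells, and removal of the Slit3-led cluster gave 2 and 15. Members higher by mean level numbered 22 to 28 and 35 to 39 in the classes on leaving out 1 library. Without thinning, 32 rather than 21 members had higher shares in both BDL libraries, where 80.5% of all genes did; the causes were not tested. Few mesenchymal-like cells in BDL (71 and 133) and the scarcity of most members in BEC-like cells limit the precision, and 2 mice per group leave the spread between mice poorly known.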
